A study of Mus musculus with 10 samples.

Results

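The NF-kB genes described here include the 5 subunit genes Nfkb1, Nfkb2, Rel, Rela and Relb. The other 5, Nfkbia, Nfkbib, Nfkbie, Nfkbiz and Tnfaip3, are counted here as inhibitors. Nfkbiz is counted with them as an IkB gene, although its product also helps induce genes. These genes were chosen by symbol as 10 of the 25178 genes in the count table. All 10 were among the 14674 genes that passed the filter on low counts. They were measured by bulk RNA-seq in bone marrow cells of C57/BL6 mice at steady state, 5 females and 5 males, with 1 library per mouse. Bone marrow came from a single hindlimb, and cells with mature lineage markers had been taken out on magnetic beads, which enriches hematopoietic stem and progenitor cells. The labels name no transgene and no treatment for either sex, and they give no age. The study asked how blood formation differs between the sexes.

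NF-kB is a family of transcription factors that act as dimers of the subunits. In resting cells IkB proteins hold most dimers in the cytoplasm, and signals from TNF, interleukin 1 or Toll-like receptors lead the IKK kinase to mark IkB for destruction, which frees the dimers to enter the nucleus. A second, slower branch runs through the kinase NIK (Map3k14) and turns the Nfkb2 precursor into p52, which pairs with Relb. Several of the inhibitor genes are themselves NF-kB targets, so that the pathway restrains itself, and in marrow it is known for roles in inflammation-driven blood formation, in cell survival and in lymphoid development. Transcript levels do not report how much of the factor is active in the nucleus.

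The promoters show which of these genes hold NF-kB binding letters close to their start. RefSeq promoter windows (GRCm38.p6, 250 bases before to 50 after a start site) were matched for 7 of the 10 genes, with 10 windows in all. Nfkb1, Relb and Nfkbiz had no entry. The search used the kB consensus by name and the shorter motif GGANTTTCC, on both strands, and a match of the short motif can lie inside a match of the consensus. At least 1 match was found in 7 of the 10 windows and in 5 of the 7 genes, against 5.16% of all 32851 windows in the table (4.51% for the consensus and 1.25% for the short motif). The last 2 windows of Nfkb2 overlap and share a match, so they are not separate observations. Those of Rela and Nfkbib held no match of these letters, and neither did the second window of Tnfaip3. The windows below belong to the 2 inhibitor genes with the best known feedback role, to the subunit gene whose sexes did not overlap and to the subunit gene with the highest correlation with Nfkbia, and capitals mark the matches:
Nfkbia, chr12:55492598-55492897, minus strand: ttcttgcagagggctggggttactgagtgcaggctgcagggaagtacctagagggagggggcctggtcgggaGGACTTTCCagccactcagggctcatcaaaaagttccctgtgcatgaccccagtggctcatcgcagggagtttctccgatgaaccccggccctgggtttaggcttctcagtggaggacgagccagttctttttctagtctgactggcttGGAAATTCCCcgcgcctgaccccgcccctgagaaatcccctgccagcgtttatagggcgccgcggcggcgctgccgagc
Tnfaip3, chr10:19015361-19015660, minus strand, first window: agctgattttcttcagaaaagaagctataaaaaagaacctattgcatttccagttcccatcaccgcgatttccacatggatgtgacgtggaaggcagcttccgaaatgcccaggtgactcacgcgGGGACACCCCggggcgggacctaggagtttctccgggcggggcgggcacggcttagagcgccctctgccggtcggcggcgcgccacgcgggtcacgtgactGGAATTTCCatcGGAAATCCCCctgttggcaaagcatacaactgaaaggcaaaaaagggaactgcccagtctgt
Nfkb2, chr19:46304487-46304786, plus strand, first window: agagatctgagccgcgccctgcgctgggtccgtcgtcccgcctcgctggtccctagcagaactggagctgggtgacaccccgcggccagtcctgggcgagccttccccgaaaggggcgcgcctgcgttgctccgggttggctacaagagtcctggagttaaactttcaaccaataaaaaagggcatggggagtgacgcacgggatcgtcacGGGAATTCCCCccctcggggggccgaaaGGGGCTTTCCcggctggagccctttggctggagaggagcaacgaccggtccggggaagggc
Rel, chr11:23770920-23771219, minus strand: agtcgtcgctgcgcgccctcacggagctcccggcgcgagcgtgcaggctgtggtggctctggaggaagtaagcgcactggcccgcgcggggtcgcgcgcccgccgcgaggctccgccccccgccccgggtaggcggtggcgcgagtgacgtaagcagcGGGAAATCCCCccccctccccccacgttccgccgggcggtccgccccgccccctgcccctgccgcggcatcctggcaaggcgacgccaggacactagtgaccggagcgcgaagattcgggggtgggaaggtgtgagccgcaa
In Nfkbia the matches began 178 and 29 bases before the start site, written in the table as -178 and -29. In Tnfaip3 they began at -125, -24 and -12, in the Nfkb2 window at -39, -38 and -11, and in Rel at -92 and -91, where neighbouring positions are overlapping readings of the same bases. A match is a description of the sequence, and these data hold no measurement of binding.

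Total counts per library ran from 20754101 to 24759687. The sex-linked genes matched every label, with 805 to 1189 counts of Xist in females against 0 to 4 in males, and 579 to 867 counts of the Y-linked Ddx3y in males against 0 in every female. Of 14 progenitor genes, some were abundant in both sexes and others low. Kit, the stem cell factor receptor, averaged 280 ± 43.3 CPM (counts per 1000000 after TMM scaling) over the females and 249 ± 59.4 CPM over the males. Procr, a marker of stem cells, averaged 0.381 and 0.447 CPM. Mpo, the myeloperoxidase of granulocyte and monocyte progenitors, averaged 2222 ± 396 and 2432 ± 231 CPM (errors are SDs over 5 mice here and wherever means of a sex are given). Of 12 T and NK cell genes, 7 passed the filter on low counts. Their counts over the 10 libraries together were uneven, with 34 for Cd5, 56 for Cd3e, 1132 for Il2rb and 10499 for Nkg7. Male replicates 1 and 2 stood apart from all other libraries, with scores of 35.3 and 36.7 on principal component 1 where no other library passed 6.04. The sum of 15 mature neutrophil genes was 9689 CPM in male replicate 1 and 2956 in male replicate 2, against 244 to 1531 in the other males and 299 to 1102 in females. In bulk RNA, fewer cells of a type and less RNA per cell cannot be told apart.

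No NF-kB subunit or inhibitor gene was called different between the sexes. The quasi-likelihood test of edgeR called 0 of the 10 genes at an adjusted p under 0.05, where 0.0545% of all genes tested were called (8 of 14674), and DESeq2 also called 0 of the 10. Nfkbia alone had an unadjusted p under 0.05, 1 of 10 where 9.17% of all genes did. Nfkb2 was the single gene whose 5 females all lay on the same side of all 5 males, 1 of 10 where 1.93% of all genes were separated in this way. Over the 5 subunits the median log2 fold change (female against male) was 0.02, and over the 5 inhibitors it was -0.11, beside -0.01 over all genes.

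**Figure D1:**
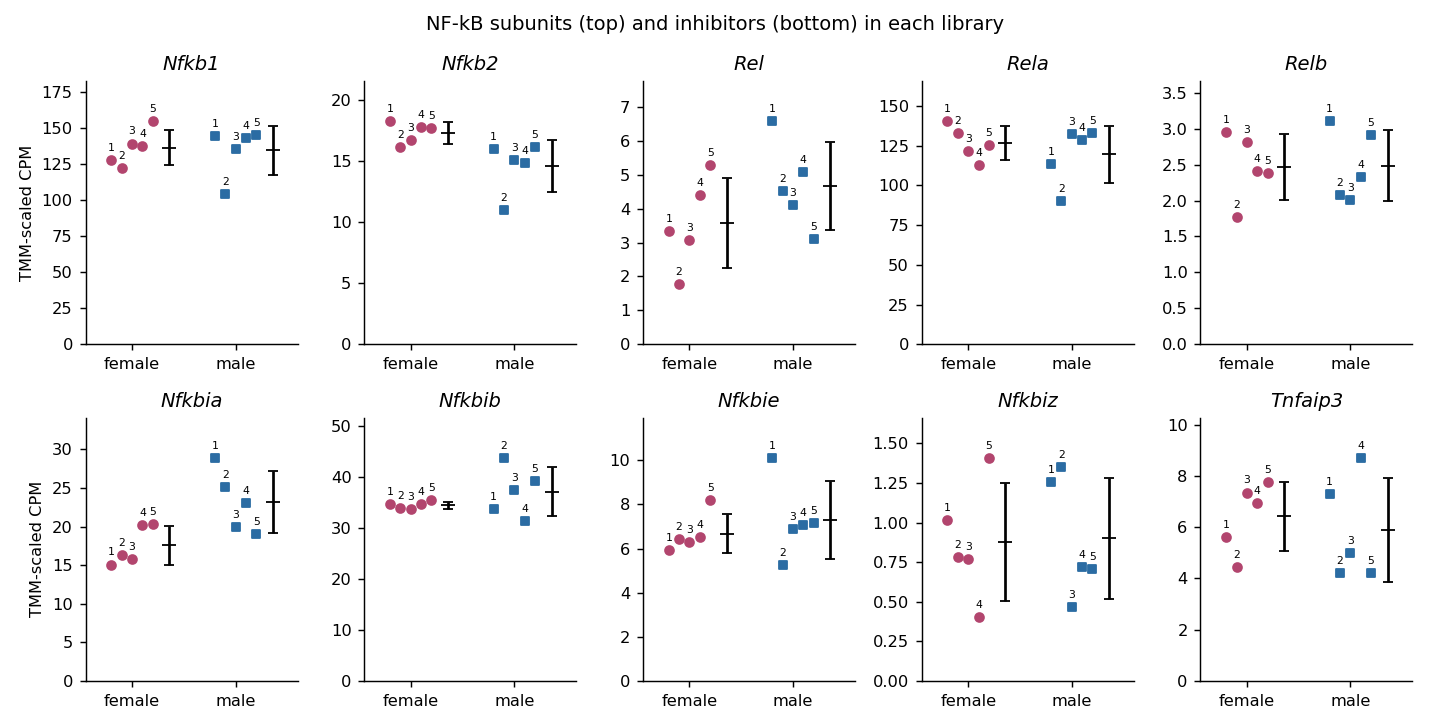
TMM-scaled CPM (vertical axis, from 0) of each NF-kB gene in the 5 female libraries (circles) and the 5 male libraries (squares), with the replicate number above each point and the mean and SD beside each group. Nfkbia lay between 15.1 and 20.3 in females and between 19.0 and 28.9 in males, and male replicate 2 was the lowest male library for Nfkb1, Nfkb2 and Rela.

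Among the subunits, Rela encodes p65, which carries the transactivation domain of the commonest NF-kB dimer (ENSMUSG00000024927, chr19:5637483-5648130, GRCm38). Its levels in female replicates 1 to 5 were 140, 133, 122, 113 and 126 CPM. In male replicates 1 to 5 they were 114, 90.4, 133, 129 and 133 CPM. The 2 ranges overlapped, and the lowest of the 10 values was male replicate 2. The female mean was 127 ± 10.47 CPM and the male mean 120 ± 18.1 CPM, a log2 fold change of 0.08 (SE 0.11, edgeR adjusted p = 0.712) that became -0.00218 without male replicate 2.

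Nfkb1 encodes p105, the precursor of the p50 subunit that pairs with p65 (chr3:135584655-135691547). It stood at 128, 122, 139, 138 and 155 CPM in female replicates 1 to 5 and at 145, 105, 136, 143 and 145 CPM in male replicates 1 to 5. Female values ran both below and above the other 4 males, and male replicate 2 was lowest of all. The log2 fold change was 0.02 with a 95% interval from -0.21 to 0.25 (edgeR adjusted p = 0.927), and without male replicate 2 it was -0.05.

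Nfkb2 encodes p100, the precursor of p52 in the slower branch and an IkB-like inhibitor while unprocessed (chr19:46304320-46312385). Female replicates 1 to 5 were at 18.2, 16.1, 16.7, 17.8 and 17.7 CPM. Male replicates 1 to 5 were at 15.98, 10.96, 15.03, 14.8 and 16.1 CPM. Every female was above every male, but the nearest pair, female replicate 2 at 16.102 CPM and male replicate 5 at 16.096 CPM, were almost level. The means were 17.3 ± 0.879 CPM and 14.6 ± 2.10 CPM for the females and the males, a log2 fold change of 0.24 (SE 0.12, unadjusted p = 0.0556, edgeR adjusted p = 0.506). It was 0.16 without male replicate 2, the lowest library. Exons of Nfkb2 share 531 bases with AC114539.1 and 299 with Psd, both on the opposite strand. No source used here says whether the counting used strand, so reads there cannot be told apart, and these 2 genes had 1494 and 1650 counts over the 10 libraries against 3663 for Nfkb2.

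Rel encodes c-Rel, the subunit best known in lymphoid cells (chr11:23736847-23770970). It was low and uneven, at 3.35, 1.78, 3.08, 4.42 and 5.28 CPM in female replicates 1 to 5 and at 6.59, 4.52, 4.10, 5.09 and 3.10 CPM in male replicates 1 to 5. The lowest library was female replicate 2 (43 counts) and the highest male replicate 1 (157 counts), with the other 8 mice of both sexes mixed between them. The log2 fold change was -0.39 (SE 0.28, 95% interval -0.997 to 0.22, edgeR adjusted p = 0.532). It moved to -0.21 without female replicate 2 and to -0.57 without female replicate 5. Relb, the partner of p52, had 40 to 74 counts per library and lay between 1.78 and 3.10 CPM. Its sexes were mixed throughout, with a log2 fold change of -0.01 (SE 0.20, edgeR adjusted p = 0.983) whose sign changed in 5 of 17 alternative fits.

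Among the inhibitors, Nfkbia encodes IkB alpha, which is destroyed and made again within each round of signalling (ENSMUSG00000021025, chr12:55489410-55492647). It stood at 15.1, 16.3, 15.9, 20.2 and 20.3 CPM in female replicates 1 to 5. In male replicates 1 to 5 it stood at 28.9, 25.1, 19.9, 23.1 and 19.0 CPM. The 3 highest values were males and the 3 lowest were females, while female replicates 4 and 5 overlapped male replicates 3 and 5. The female mean was 17.6 ± 2.49 CPM and the male mean 23.2 ± 4.02 CPM. The log2 fold change was -0.40 (SE 0.14, 95% interval -0.70 to -0.10), with an unadjusted p of 0.0134 and an edgeR adjusted p of 0.506 (0.311 by DESeq2), so that it did not pass the adjusted test. It was negative in all 17 alternative fits, between -0.46 and -0.24. Leaving out male replicate 1 gave -0.31, and leaving out male replicate 2 as well gave -0.24.

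Nfkbib encodes IkB beta, a slower inhibitor of the same dimers (chr7:28758251-28767512). Females lay close together, between 33.8 and 35.6 CPM, inside the wider range of the males, 31.4 to 43.8 CPM. The log2 fold change was -0.11 (SE 0.10, edgeR adjusted p = 0.597) and -0.0389 without male replicate 2, the highest library. Its exons share 42 bases with Sirt2 on the opposite strand, a gene of 20058 counts against 8170 for Nfkbib, which leaves the same doubt about strand. Nfkbie, the gene of IkB epsilon (chr17:45555703-45563169), was between 5.92 and 8.21 CPM in females and between 5.24 and 10.1 CPM in males, whose lowest and highest libraries were replicates 2 and 1. Its log2 fold change was -0.13 (SE 0.17, edgeR adjusted p = 0.707) and 0.01 without male replicate 1.

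Nfkbiz and Tnfaip3, which inflammatory signals switch on quickly in many cells, were low. Nfkbiz encodes IkB zeta, a nuclear cofactor that helps induce secondary response genes (chr16:55811375-55838899). It had 9 to 36 counts per library and averaged 0.876 ± 0.370 CPM over the females and 0.901 ± 0.383 CPM over the males. Its 95% interval, -0.84 to 0.78 on the log2 scale, was the widest of the 10 genes. Tnfaip3 encodes A20, an enzyme that edits ubiquitin chains to shut signalling off (chr10:19000910-19015657). It ranged from 4.46 to 7.74 CPM in females and from 4.21 to 8.70 CPM in males, with a log2 fold change of 0.12 (SE 0.24, edgeR adjusted p = 0.795) that ran from 0.0246 to 0.31 when 1 male library was left out. For neither gene did the sexes form separate ranges.

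**Figure D2:**
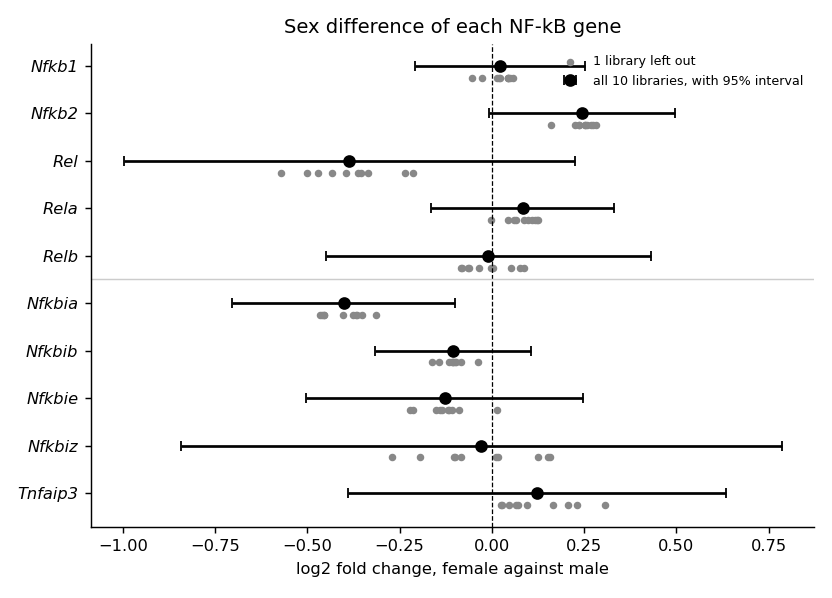
Log2 fold change, female against male (horizontal axis), for each NF-kB gene, with the edgeR estimate and 95% interval from all 10 libraries (black) and the 10 estimates with 1 library left out (grey). Nfkbia is the only gene whose interval, -0.70 to -0.10, does not include 0.

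Levels between genes were compared as CPM per kb of exon union, on a linear scale. Rela was highest at 40.1 ± 4.70 CPM per kb over the 10 mice (SD), higher per length than 88.9% of all genes kept. Nfkbib (16.5 ± 1.64), Nfkbia (12.7 ± 2.69) and Nfkb1 (11.2 ± 1.17) came next, and the gap between Nfkbia and Nfkb1 was smaller than the SD of Nfkbia. Nfkb2 (3.48 ± 0.455) and Nfkbie (2.29 ± 0.445) each stood apart from their neighbours by more than their SDs. Tnfaip3 (0.851 ± 0.228), Relb (0.638 ± 0.116) and Rel (0.553 ± 0.183) followed, each within an SD of its neighbour among these 3. Nfkbiz was lowest at 0.177 ± 0.0708, clear of Rel by more than both SDs. Rela, Nfkb2, Nfkbie and Nfkbiz held the same place, 1, 5, 6 and 10, in every library.

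The place of Nfkb1 depended on the length used, because its exon union in GENCODE vM21 spans 12061 bases while its longest transcript with a CCDS coding sequence has 4117. With that shorter length Nfkb1 was at 32.9 ± 3.44 CPM per kb and second to Rela at 45.4 ± 5.32, and the other 8 genes kept their order. Taking the exon union, Rela held 71.7% ± 2.79 of the summed subunit level in females and 71.3% ± 1.93 in males, and Nfkb1 held 19.8% ± 2.15 and 20.5% ± 1.09. Rel and Relb each held at most 1.63% in any library. These shares rest on the exon union, the length that puts Nfkb1 lowest.

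**Figure D3:**
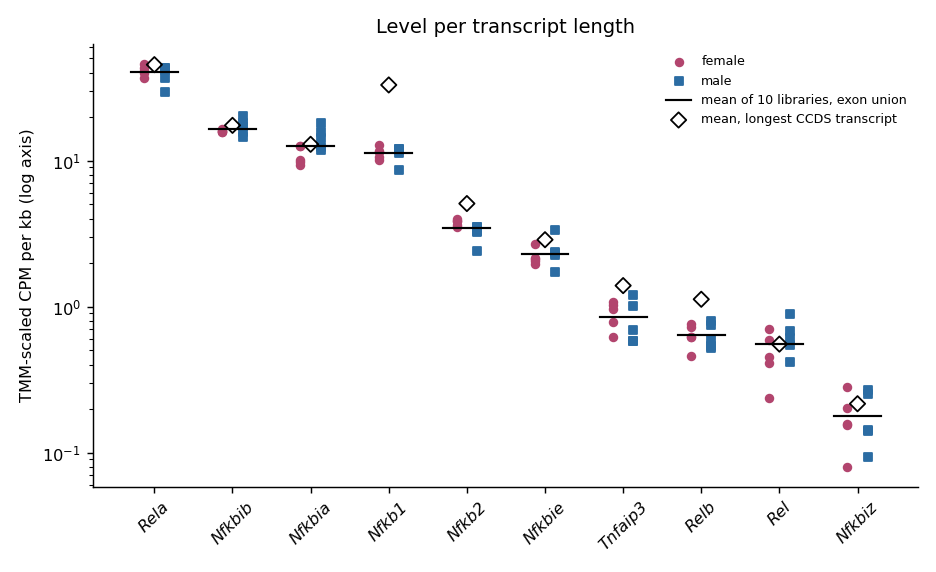
TMM-scaled CPM per kb of exon union (logarithmic vertical axis) for each gene in female (circles) and male (squares) libraries, with the mean of 10 libraries (line) and the mean per kb of the longest CCDS transcript (diamond). Rela is highest with either length, at 40.1 and 45.4, and Nfkb1 moves from 11.2 to 32.9.

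The summed inhibitor level over the summed subunit level, per length, was 0.525 ± 0.0532 in females and 0.658 ± 0.161 in males, given as a description with no test. The ratio, like the shares above, rests on the exon union, the length that puts Nfkb1 lowest, so its size depends on the length used. Nfkbiz, counted here as an inhibitor, held at most 0.849% of the inhibitor sum in any library. The ratio in females ran from 0.460 to 0.595. Male replicates 1 and 2 were at 0.704 and 0.922, and the other 3 males, between 0.551 and 0.558, lay inside the female range with a mean of 0.555.

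Male replicate 2 had an unusual pattern among the members. It was the lowest of the 10 libraries for Nfkb1, Nfkb2, Rela, Nfkbie and Tnfaip3 and the highest for Nfkbib. On the log2 scale it lay 0.33 and 0.29 above the 10-library mean for Nfkbia and Nfkbib, which have the shortest exon unions of the 10 (1610 and 2169 bases), and its deviations were -0.37 for Nfkb1 and -0.49 for Tnfaip3 (12061 and 7226 bases). Other members did not follow length, with Nfkbiz (5018 bases) at 0.65, Rel (7466 bases) at 0.20, Rela (3072 bases) at -0.44 and Nfkbie (3045 bases) at -0.39. Nfkb2 (4584 bases) was at -0.52, the lowest deviation of this library, and Relb (3885 bases) at -0.22. These lengths are exon unions, and the longest CCDS transcripts of Nfkb1 and Tnfaip3 have 4117 and 4422 bases. Across all genes the deviations of this library fell with exon length (rank correlation -0.506, against -0.297 to 0.369 in the other 9). Its sum of 9 mitochondrially encoded genes was 34190 CPM, against 20183 to 24772 CPM in the other 9 libraries. Its TMM factor of 0.886 was the lowest, with the next at 0.964 in male replicate 1. The part of length or of these library traits in the values of the members was not tested. Male replicate 1 was above the mean for 8 of the 10 genes, as was female replicate 5, and female replicate 2 was above it for 2.

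**Figure D4:**
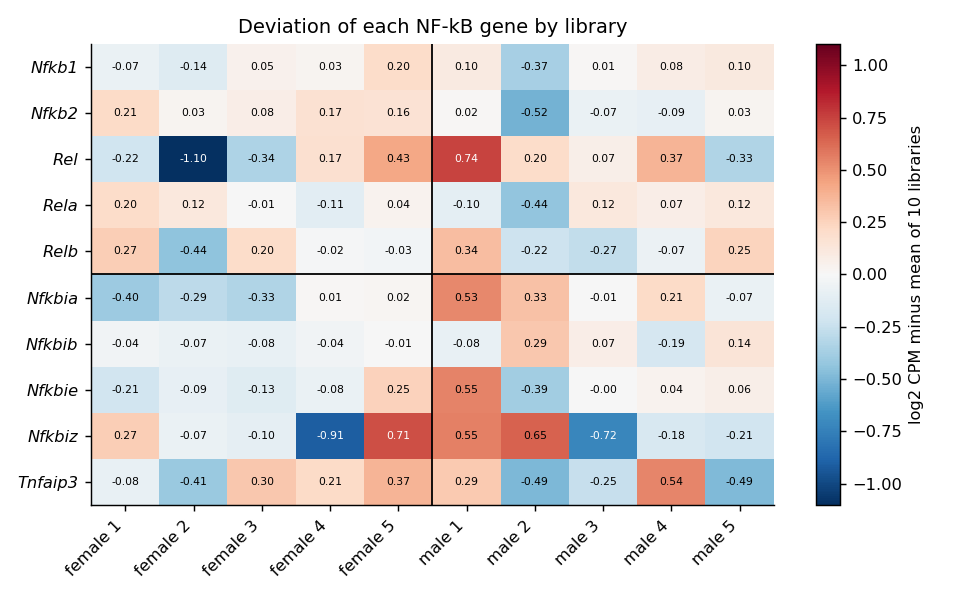
Deviation of log2 CPM from the mean of the 10 libraries for each gene (rows) and library (columns), printed in each cell and coloured from blue (below) to red (above). Female replicate 2 is lowest for Rel, at -1.101, and male replicate 2 is below the mean for 6 of the 10 genes.

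The spread between mice of the same sex differed widely among the genes. The coefficient of variation within sexes, on linear CPM, was 9.65% for Nfkbib, 10.1% for Nfkb2, 11.04% for Nfkb1 and 12.02% for Rela, all below the median of 18.5% over the genes kept. It was 16.4% for Nfkbia, 19.4% for Relb, 19.97% for Nfkbie and 27.9% for Tnfaip3. Rel and Nfkbiz, at 31.9% and 42.4%, were the most variable, and their low counts add counting error to that spread.

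Across the 10 mice, no pair of the genes passed adjustment over the 45 pairs by r or by rho. Nfkbia and Rel had the highest r in log2 CPM (Pearson r = 0.785, permutation p = 0.00624, adjusted p = 0.158; Spearman rho = 0.867, permutation p = 0.00232, adjusted p = 0.0621). Without male replicate 1 and female replicate 2, the libraries farthest from the median of Rel, r was 0.747. Nfkb1 and Nfkbie followed, with r = 0.746 (permutation p = 0.0204, adjusted p = 0.306) and rho = 0.855 (permutation p = 0.00276, adjusted p = 0.0621), and r = 0.680 without female replicate 2 and male replicate 2. The most negative r was that of Nfkbib and Tnfaip3 (r = -0.746, permutation p = 0.00704, adjusted p = 0.158; rho = -0.709, permutation p = 0.0263, adjusted p = 0.395), with r = -0.532 without male replicates 2 and 5. For this pair r was 0.472 among the 5 females, whose Nfkbib levels spanned only 33.8 to 35.6 CPM, and -0.950 among the 5 males. A difference between the sexes was not tested, and 5 mice are few for either value. Within females and males r was 0.683 and 0.910 for Nfkbia and Rel, and 0.802 and 0.785 for Nfkb1 and Nfkbie. The relation of Nfkb1 and Nfkb2 (r = 0.702, rho = 0.127) rested on male replicate 2, since r was -0.141 without it and female replicate 2.

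Members were also compared with markers of other cell types, as log2 CPM against log2 of the summed CPM of each list plus 1 over the same 10 libraries. Of 100 pairs of a gene and a list, 6 passed adjustment over them by r or by rho, and 2 of these held Nfkbia. For the sum of 12 B lineage genes and Nfkbia, r was 0.901 (permutation p = 0.00032, adjusted p = 0.0160) and rho 0.721 (permutation p = 0.0230, adjusted p = 0.155), with r = 0.801 without male replicates 1 and 4. Without Cd79b, the most abundant gene of that list, r was 0.885 (permutation p = 0.00054, adjusted p = 0.00324 over the 6). There rho was again 0.721 (permutation p = 0.0230, adjusted p = 0.0689 over the 6). This check was chosen after seeing the data. The 6 pairs were those that had already passed, so adjustment over them does not cover that choice. The B lineage sum was 11.8 to 18.03 CPM in females and 16.8 to 51.2 CPM in males. For the sum of 12 T and NK cell genes and Nfkbia, r was 0.900 (permutation p = 0.00013, adjusted p = 0.0130) and rho 0.915 (permutation p = 0.00046, adjusted p = 0.0153), with r = 0.883 without male replicate 1 and female replicate 2. Nkg7, a gene of cytotoxic granules, made up 73.1% to 88.9% of that sum. Without Nkg7, r was 0.506 (permutation p = 0.134) and rho 0.576 (permutation p = 0.0883), so the relation with Nfkbia was not shown for the other 11 genes, of which Trac had only 79 counts in all. The T and NK sum ran from 35.4 to 55.3 CPM in females and from 52.7 to 89.6 CPM in males. The mature neutrophil genes did not pass (r = 0.772, permutation p = 0.00924, adjusted p = 0.101; rho = 0.733, permutation p = 0.0208, adjusted p = 0.155), and r without male replicates 1 and 2 was 0.372. Within a sex these relations were not computed, since 5 mice are too few. The permutations ran over all 10 libraries without regard to sex. Nfkbia and each of these sums had a higher mean in males, so a relation apart from sex was not shown. The part of these cells in the level of Nfkbia was not tested.

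Rel was in 3 of the 6 pairs, and each weakened without the most abundant gene of its list. With the sum of 10 monocyte genes, r was 0.841 (permutation p = 0.00395, adjusted p = 0.0564) and rho 0.939 (permutation p = 0.00024, adjusted p = 0.0153), with r = 0.844 without male replicate 1 and female replicate 5. Without Ly6c2, r was 0.729 (permutation p = 0.0159) and rho 0.636 (permutation p = 0.0535). With the sum of 14 progenitor genes, of which Mpo made up 73.4% to 80.9%, r was 0.898 (permutation p = 0.00084, adjusted p = 0.0280) and rho 0.818 (permutation p = 0.00607, adjusted p = 0.0674), and r was 0.638 without female replicate 2 and male replicate 1. Without Mpo, r was 0.571 (permutation p = 0.0808) and rho 0.552 (permutation p = 0.104). With the T and NK sum, Rel had r = 0.854 (permutation p = 0.00236, adjusted p = 0.0564) and rho = 0.927 (permutation p = 0.00039, adjusted p = 0.0153), and r was 0.567 without male replicate 1 and female replicate 2. Without Nkg7, r was 0.576 (permutation p = 0.0826) and rho 0.661 (permutation p = 0.0444). The monocyte sum was 390 to 689 CPM in females and 500 to 1025 CPM in males. Rel and these 3 sums also had higher means in males, so a relation of Rel apart from sex was not shown. The last of the 6 pairs was Nfkb2 with the sum of 14 erythroid genes. In both of these measures every female lay on the same side of every male, so a relation between them cannot be told apart from sex, and none is given. The erythroid sum was 7883 to 12856.5 CPM in females and 14848 to 51242 CPM in males, and 4 globin genes made up 44.5% to 59.1% of it in females and 62.7% to 89.1% in males. Klf1 and Gata1, regulators of red cell formation in the same list, had log2 fold changes of 0.05 and -0.01.

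**Figure D5:**
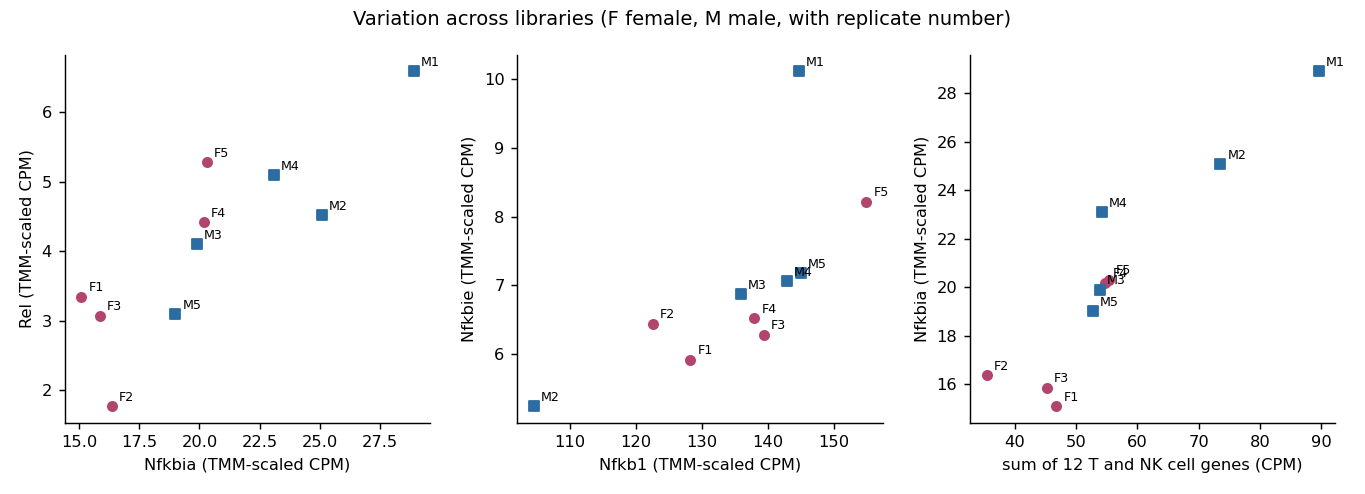
Each point is a library, female (circles, F) or male (squares, M) with its replicate number, on linear axes of TMM-scaled CPM that do not start at 0. The left panel plots Rel against Nfkbia (r = 0.785 in log2 CPM), the middle panel Nfkbie against Nfkb1 (0.746) and the right panel Nfkbia against the sum of 12 T and NK cell genes (0.900), which is mostly Nkg7.

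The genes whose profile over the 10 libraries was most like that of each member were taken from 8923 other genes with a mean of at least 10 CPM, as a description. For Nfkb1 they were Pik3cd (r = 0.982), the leukocyte PI3-kinase subunit, and Plcb2 (0.978), and r was 0.948 and 0.951 without male replicates 1 and 2. For Rela they were Ccnf (0.979) and Ubp1 (0.979), with 0.912 and 0.905 over those 8 libraries. Nfkbia was closest to the vesicle gene Vamp3 (0.945) and to Ms4a6b (0.943), and Rel to Ttc38 (0.963) and Rhoh (0.936). Nfkbib was closest to Chchd6 (0.946) and Eif6 (0.935), and Nfkbie to Rab27a (0.952) and Slc9a3r1 (0.944). For Nfkb2 the closest were the Amd pseudogenes Amd-ps4 (0.953) and Amd-ps3 (0.952), whose reads can be shared with near-identical copies. Lower values were found for Relb (Dcaf17, 0.881, and Slc35b2, 0.851), Tnfaip3 (Prkx, 0.872, and Kif1b, 0.845) and Nfkbiz (Mgme1, 0.858, and Hdac8, 0.810).

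The rest of the pathway was read from lists arranged by role, and in each of them edgeR called 0 genes, as did DESeq2. Of 13 ligand genes 12 were in the table and 8 were tested, with a median log2 fold change of -0.28 and 3 of 8 above 0. Leaving out male replicate 1 moved that median to -0.0978, and leaving out male replicate 2 as well moved it to 0.0174. An unadjusted p under 0.05 was found for 5 of the 8, where 9.17% of all genes had such a p, here and beside the lists below. Counts per library were low, at 11 to 109 for Il1b, 23 to 62 for Tnfsf13, 3 to 101 for Tnfsf13b and 4 to 39 for Il18. Il1b, the gene of interleukin 1 beta, averaged 1.09 ± 0.470 CPM in females against 2.38 ± 1.38 CPM in males (log2 fold change -1.13, SE 0.42, edgeR adjusted p = 0.506), with its highest values in male replicates 1 (4.57) and 2 (2.86). Ltb, which encodes lymphotoxin beta, was at 5.48 ± 1.09 and 7.79 ± 2.64 CPM, also highest in those libraries (10.99 and 10.1). Those libraries held the largest neutrophil sums and the largest T and NK sums (89.6 and 73.5 CPM). Male replicate 1 also held the largest B lineage sum (51.2 CPM). The part of any of these cells in these values was not tested. Tnfsf13, the gene of the TNF family ligand APRIL, had the opposite sign, at 1.96 ± 0.361 CPM over females against 1.27 ± 0.287 CPM over males (log2 fold change 0.63, SE 0.22, edgeR adjusted p = 0.506). The other two were Tnfsf13b, which encodes the B cell factor BAFF (0.298 ± 0.179 against 1.49 ± 1.58 CPM), and the cytokine gene Il18 (0.484 ± 0.278 against 0.968 ± 0.425 CPM). Tnf itself had 37 counts over the 10 libraries and did not pass the filter on low counts.

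Among TNF family and interleukin 1 receptors 11 of 15 were tested, with 2 of 11 above 0, a median log2 fold change of -0.17 (-0.31 without female replicate 5 and -0.107 without male replicate 1) and 0 at an unadjusted p under 0.05. Tnfrsf13b, which encodes the receptor TACI, averaged 14.9 ± 3.58 CPM for females and 19.4 ± 5.98 CPM for males, and Tnfrsf12a, the TWEAK receptor gene, 1.06 ± 0.312 and 1.77 ± 0.981 CPM. Il1rl1, the interleukin 33 receptor gene, stood higher in the female mean, at 63.4 ± 6.20 CPM against 54.2 ± 8.72 CPM. All 3 had an edgeR adjusted p of 0.506.

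The adaptors of the TRAF and cIAP families, which carry the signal from those receptors, had a median of 0.02 over 13 genes, with 9 above 0 and 0 at an unadjusted p under 0.05. The smallest p was that of Traf1 (log2 fold change 0.72, edgeR unadjusted p = 0.0526, adjusted p = 0.506), a gene of 4 to 21 counts per library. Among genes with a mean of at least 1 CPM, the first 3 by p were Traf3, Bcl10 and Birc2. Traf3, a brake on the NIK branch, was at 27.2 ± 2.85 CPM in females against 21.7 ± 5.29 in males. Bcl10 was at 25.97 ± 2.52 against 30.6 ± 6.46 and Birc2 at 28.3 ± 3.16 against 25.8 ± 4.88. Of the IKK complex and the kinases and ubiquitin ligases above it, all 15 were tested, with 11 above 0, a median of 0.07 (0.00872 without male replicate 2) and 1 at an unadjusted p under 0.05. That gene was Ripk1, the kinase scaffold of TNF receptor signalling, with 43.0 ± 1.11 CPM in females against 36.7 ± 5.01 CPM in males (log2 fold change 0.23, SE 0.10, edgeR adjusted p = 0.506), with all 5 females above all 5 males. Of the subunits of the linear ubiquitin ligase, Rnf31 was at 0.26, Rbck1 at 0.05 and Sharpin at -0.18 on the log2 scale (edgeR adjusted p = 0.506, 0.761 and 0.506). The 95% interval of each included 0.

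Of 16 further IkB-like genes and brakes 14 were tested, with 4 above 0, a median of -0.05 and 1 at an unadjusted p under 0.05. Otud7b, a deubiquitinase that protects Traf3, averaged 57.0 ± 7.49 CPM in females against 43.4 ± 6.78 CPM in males (log2 fold change 0.39, SE 0.13, edgeR adjusted p = 0.506). Commd1 and Pdlim2, which promote loss of p65, had log2 fold changes of -0.43 and -0.40. Commd1 reached 44.2 CPM in male replicate 2 and lay between 18.3 and 28.2 CPM in the other 9 libraries. Of 25 NF-kB target genes 24 were in the table and 14 were tested, with 2 above 0, a median of -0.16 and 1 at an unadjusted p under 0.05. This median became -0.0903 when male replicate 1 was left out, 0.0291 when male replicate 2 was left out too, and -0.31 when only female replicate 4 was. The gene with that p was the chemokine gene Ccl3, with 2.85 ± 0.987 CPM in females against 4.77 ± 1.72 CPM in males (log2 fold change -0.74, SE 0.29, edgeR adjusted p = 0.506), highest in male replicates 2 (7.37) and 1 (5.41). Gadd45b was at 2.91 ± 0.693 and 4.04 ± 1.41 CPM and Junb at 28.3 ± 3.04 and 31.6 ± 2.14 CPM in females and males (edgeR adjusted p = 0.506 and 0.508).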

How the data were processed

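Each mouse gave 1 RNA library, 5 per sex. The authors deposited raw read counts per Ensembl gene, made, per the submitters' processing notes, with STAR and featureCounts (DESeq is also listed) on GRCm38.p6 or mm10. Tool versions, kit and strand setting: not given in the sources used here. A deposited table of normalized values was not used. Lengths and places come from GENCODE vM21 (GRCm38), in which 25116 of the 25178 gene identifiers were found, 97.5% of them with the same version.

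Counts were filtered with filterByExpr, TMM-scaled and fitted with the robust quasi-likelihood test of edgeR 4.0.16 (R 4.3.3) on sex alone. Benjamini-Hochberg adjustment ran over all 14674 genes, the SE is the size of the log2 fold change over the root of F, and log2 CPM for correlations used a prior count of 2. Permutation p-values of correlations used 100000 draws over all 10 libraries without regard to sex, and were two-sided. Alternatives were DESeq2 1.42.0, its size factors, other filters, no robust fit, a replicate block, libraries left out and other lengths. The members and lists were chosen with earlier results of these data known. Besides the members, up to 3 genes of smallest p per list with a mean of at least 1 CPM are named, and any other gene was named with its values already known. In simulated counts for this comparison, fitted on 14482 genes, a log2 change of 1 was called in 75% of 100 genes. A log2 change of 2 was called in 96% of 100, with 17 false calls among 188. No change as small as the largest of a member, -0.40 for Nfkbia, was simulated. These shares therefore do not tell how often a change of that size would be called. The real data gave 8 calls, and Hbb-bs, with a log2 fold change of -2.25, was not called (edgeR adjusted p = 0.193). In all 20 pairs of libraries of 1 sex, counts differed beyond sampling noise (the smallest chi-square statistic was 8.98 times its degrees of freedom).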

Additional observations from a re-analysis of the deposited data

Results flagged for a closer look

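Among 31 named genes, each tested in both sexes (62 groups of 5 libraries), 6 values lay so far from the rest of their own sex that the gap to the nearest library exceeded 0.71 of the whole range. Chance alone flags about 1 in 20 such groups. In male replicate 2, Nfkb1 was at 105 CPM with the next male at 136, and Nfkb2 was at 10.96 CPM with the next at 14.8. Tnfrsf12a was at 3.48 CPM in the same library, with the next at 1.51. In male replicate 1, Birc2 was at 34.3 CPM with the next at 25.7, and Tnfrsf13b was at 29.7 CPM with the next at 19.0. In female replicate 5, Nfkbie was at 8.21 CPM with the next female at 6.52.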

How the results depend on the processing

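The count of 0 members called held in all 17 alternative fits, as did the 0 calls in each pathway list. The number of all genes called was 60 by DESeq2, 5 with the replicate block and 6 to 10 with any 1 library left out, against 8. Replicate numbers did not pair the mice (correlation of same-numbered deviations between -0.302 and -0.0071, 0 of 5 matching their own number best). No other block result changed a call. The sign of the fold change turned under some alternative for 5 of the 10 members. Leaving out 1 library gave log2 fold changes of -0.0549 to 0.0580 for Nfkb1 (main value 0.02), -0.00218 to 0.12 for Rela (0.08), -0.0825 to 0.0881 for Relb (-0.01), -0.22 to 0.0132 for Nfkbie (-0.13) and -0.27 to 0.16 for Nfkbiz (-0.03). Without male replicates 1 and 2 the values were -0.0504, -0.0542, 0.0314 and 0.47 for Nfkb1, Rela, Relb and Nfkbiz. The medians of the ligands and of the target genes also turned, to 0.0174 and 0.0291. The cause was not tested. Per kb of coding sequence, Rela was at 73.1, Nfkb1 46.3, Nfkbib 33.3, Nfkbia 21.6, Nfkbie 5.94, Nfkb2 5.79, Tnfaip3 2.65, Rel 2.34, Relb 1.48 and Nfkbiz 0.407 CPM per kb. Per kb of the longest CCDS transcript, chosen after seeing the data, Rela was at 45.4, Nfkb1 32.9, Nfkb2 5.07, Nfkbie 2.87, Tnfaip3 1.39 and Relb 1.12. A shorter length raises the value, and for Rel the CCDS transcript is as long as the exon union. Counts of 9 to 36 per library limit Nfkbiz most.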

Other observations

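Immediate early genes, which respond within minutes to signals and to cell handling and include regulators that share stimuli with NF-kB, gave no call in edgeR among 16 tested (2 at an unadjusted p under 0.05, 2 above 0, median log2 fold change -0.20). Myc, the growth regulator, averaged 204 ± 13.8 CPM in females against 169 ± 18.8 CPM in males (log2 fold change 0.27, SE 0.09, edgeR adjusted p = 0.506). The phosphatase gene Dusp1 was at 13.4 ± 2.66 and 18.5 ± 3.66 CPM, with every female below every male, and Ier2 at 36.2 ± 4.29 and 42.6 ± 5.05 CPM (SD, n = 5 each). The summed level of the 20 listed genes overlapped between the sexes, with 409 to 489 CPM in females and 424 to 480 CPM in males. Myc alone made up 33.7% to 51.5% of that sum, with a mean share of 46.6% in females and 38.2% in males. The sum therefore does not describe the other genes, since only 2 of the 16 tested were above 0.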
